A study of Rattus norvegicus with 44 samples.

Results

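The phagocyte NADPH oxidase genes Cyba, Cybb, Ncf1, Ncf4 and Rac2, together with the integrin gene Itgb2, were examined in RNA of the dentate gyrus (DG) of 44 male F344 rats, with 1 library per rat. The 6 genes were chosen by symbol from the 18347 gene identifiers of the deposited table, by a rule that names them and uses no measured value. Earlier results of these data were known when they were chosen. Each of the 6 has 1 row in the table, and all 6 passed the filter on low values, a mean normalized value of at least 5, which left 15598 genes for testing. Young rats (YNG, n = 10) were 6 months old and received vehicle. Older rats were 12 months old when treatment started and about 18 months at tissue collection, and received vehicle (AV, n = 12), the BCL-2 family inhibitor ABT-263 at 12 mg/kg (AA, n = 11), or the kinase inhibitor dasatinib at 1.2 mg/kg with the flavonoid quercetin at 12 mg/kg (D + Q; ADQ, n = 11). Each of 8 cycles of oral dosing lasted 5 days and preceded the behavioral tests, after which a final round was given. The groups share the strain, the sex and the tissue, and each library comes from the DG of a single hemisphere.

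The phagocyte oxidase moves electrons from NADPH across a membrane onto oxygen and so makes superoxide. In the brain it is best known from microglia, the resident macrophages, and it is silent until its cytosolic subunits join the membrane part. The leukocyte integrins bind complement fragments and adhesion molecules and are among the surface proteins whose engagement can set off this assembly. The comparison of AV with YNG asks how these transcripts differ with age, and the comparisons of AA and ADQ with AV ask how they differ with senolytic treatment.

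Estimated reads per rat ranged from 10166556 to 24328321. Rat numbers fall into a lower series of 22 rats and a higher series of 22 rats, each holding all 4 groups, and the transcript AABR07000398.1 took 0.422% to 1.6% of the normalized values in the lower series and 1.71% to 11.1% in the higher. The labels do not call these series batches, so values within each are given beside the results. In the higher series the AV rats are numbered 4566 to 4572 and the AA and ADQ rats 4031 to 4110. There a difference between AV and treated rats cannot be told apart from one between these blocks of numbers. The tissue label was checked against granule cell markers, of which Lct and Tdo2 were near 0 and the 8 together summed to between 3917 and 15417 per rat. Markers of neighboring tissue were present and varied, since 4 CA1 pyramidal cell markers summed to between 1828 and 42262 per rat and 6 choroid plexus markers to between 15.5 and 1393, and their part in the results was not tested. Of 17 microglial markers 15 were in the table, and none was at 0 in every rat.

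In AV compared to YNG, Ncf1, Rac2 and Itgb2 were higher by 0.56 ± 0.14, 0.79 ± 0.26 and 0.80 ± 0.13 on the log2 scale (difference ± SE, n = 12 and 10). Cyba, Cybb and Ncf4 did not pass the unadjusted threshold of p = 0.05 that the study used, which 21.3% of all genes passed in that comparison and 10.6% passed as higher. In ADQ compared to AV, every member except Ncf4 passed as lower, with differences from -0.91 to -0.49, where 9.32% of all genes passed and 5.9% passed as lower. In AA compared to AV, Rac2 and Itgb2 alone passed, both lower, where 4.51% of all genes passed and 3.1% passed as lower. In AA compared to YNG, Ncf1 and Itgb2 passed, both higher, where 26.6% of all genes passed and 12.6% passed as higher. These are differences of mean log2(value + 1) from a limma fit over all 44 rats and all 15598 genes, in which values are reads divided by a size factor per library, and such differences understate the change of low genes. In bulk tissue fewer cells of a type and less RNA per cell cannot be told apart.

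**Figure D1:**
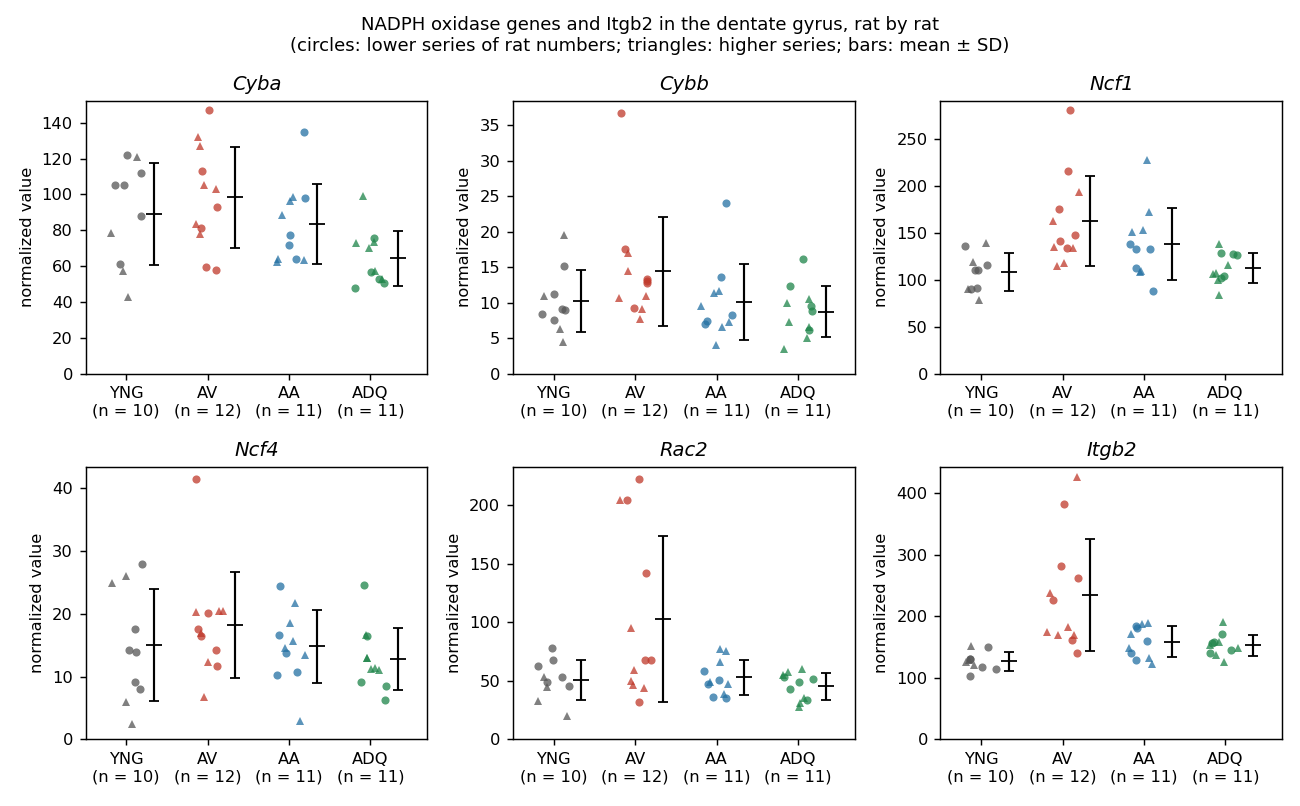
Normalized value of each gene (vertical axis, from 0) in each of the 44 rats, by group. Circles are rats of the lower series of numbers, triangles rats of the higher series, and black bars the group mean ± SD. The AV rats run from 31.6 to 223 for Rac2 and from 141 to 427 for Itgb2, and no rat of another group exceeds 78.3 or 191.

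Cyba and Cybb encode the 2 membrane subunits of the oxidase. Cybb is the catalytic one, which carries the heme groups and the flavin, and Cyba is its stabilizing partner and the docking site of the organizer subunit. The 250 bases before the annotated start of both genes are shown because the proteins are made to be joined while, as described further on, the transcripts did not closely follow each other from rat to rat. They were taken from the RefSeq promoter table of build GRCr8, a later build than the one used for the values, on the minus strand at chrX:16065066-16065315 for Cybb and chr19:67404215-67404464 for Cyba. Capitals mark TTCCTC, the reverse complement of GAGGAA, the core bound by the myeloid factor PU.1.
Cybb: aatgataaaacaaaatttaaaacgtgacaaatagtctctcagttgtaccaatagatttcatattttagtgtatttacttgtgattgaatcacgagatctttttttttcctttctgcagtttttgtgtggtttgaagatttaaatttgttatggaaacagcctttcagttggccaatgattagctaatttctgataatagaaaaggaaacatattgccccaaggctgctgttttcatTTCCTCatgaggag
Cyba: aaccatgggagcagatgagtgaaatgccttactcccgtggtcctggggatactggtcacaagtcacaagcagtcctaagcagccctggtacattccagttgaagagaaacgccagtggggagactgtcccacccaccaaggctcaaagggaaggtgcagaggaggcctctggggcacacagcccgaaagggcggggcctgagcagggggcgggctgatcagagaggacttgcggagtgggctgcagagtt
GAGGAA was searched on both strands and was found once in Cybb, where TTCCTC begins 14 bases before the start, and not in Cyba or Ncf1. Of 33469 promoters of this length in the table, 23.3% hold these letters. Ncf4, Rac2 and Itgb2 were not matched.

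Cyba ranged from 42.8 over a median of 96.3 to 122 in YNG and from 57.7 over 98.0 to 147 in AV. It ranged from 62.5 over 77.6 to 135 in AA and from 47.6 over 57.3 to 99.3 in ADQ. The ranges of all 4 groups overlap, and ADQ sits lowest, with 10 of its 11 rats below the AV median and 6 below the lowest AV rat. The means ± SD were, from the highest to the lowest, 98.3 ± 28.2 in AV, 89.2 ± 28.4 in YNG, 83.6 ± 22.4 in AA and 64.4 ± 15.4 in ADQ, and only ADQ lies apart from a neighbor in this order by the test.

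Cyba was lower in ADQ than in AV by 0.58 ± 0.17 (p = 0.00122, adjusted p = 0.222), than in YNG by 0.42 ± 0.18 (p = 0.0206, adjusted p = 0.111) and than in AA by 0.36 ± 0.17 (p = 0.0406, adjusted p = 0.981). The last of these was lost, with p up to 0.0971, when any 1 of 11 rats was left out. It was the 1 member that passed the unadjusted threshold in ADQ compared to YNG, where 28.1% of all genes passed and 14.6% passed as lower. It was also the 1 member that passed between the 2 treated groups, where 4.53% of all genes passed and 2.13% passed as higher in AA. The difference between AV and YNG was 0.16 ± 0.17 (p = 0.365), with a 95% interval of -0.19 to 0.51. The difference between AA and AV was -0.22 ± 0.17 (p = 0.201).

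Both comparisons of Cyba with YNG differed between the series of rat numbers before adjustment (limma interaction p = 0.0412 for AV and 0.0291 for ADQ, adjusted p = 0.208 and 0.509). In the lower series ADQ was below YNG by 0.78 (p = 0.00341), and in the higher series the difference was 0.00 (p = 0.999). AV minus YNG was -0.15 (p = 0.515) in the lower series and 0.56 (p = 0.0296) in the higher. ADQ was below AV in both, by 0.63 (p = 0.015) and 0.56 (p = 0.0163). The difference between ADQ and AV was similar in size in each series (interaction p = 0.835).

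Cybb was a low transcript, with 3 to 39 reads per library, so counting error alone is large in each rat. It ranged from 4.51 over a median of 9.07 to 19.6 in YNG and from 7.70 over 12.9 to 36.8 in AV. It ranged from 4.02 over 8.22 to 24.1 in AA and from 3.51 over 8.80 to 16.1 in ADQ. All groups overlap, and 1 AV rat, number 3989, stands above every other rat.

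Cybb was lower in ADQ than in AV by 0.64 ± 0.24 (p = 0.0118, adjusted p = 0.414). Against YNG it differed by 0.44 ± 0.25 in AV (p = 0.0846), by -0.04 ± 0.26 in AA (p = 0.868) and by -0.20 ± 0.26 in ADQ (p = 0.44). AA minus AV was -0.48 ± 0.24 (p = 0.0535), just outside the threshold, and leaving out single rats put its p between 0.013 and 0.135. The fall in ADQ kept its size within the series of rat numbers, at -0.57 (p = 0.12) and -0.66 (p = 0.0633), and passed in neither. Without rat 3989 the difference between ADQ and AV was -0.51.

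Ncf1 and Ncf4 encode cytosolic subunits. Ncf1 is the organizer, which on phosphorylation opens and carries the cytosolic complex to the membrane, and Ncf4 binds a phosphoinositide of the phagosome membrane.

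Ncf1 ranged from 78.7 over a median of 110.0 to 139 in YNG and from 114 over 144 to 280.1 in AV. It ranged from 87.5 over 132 to 227 in AA and from 83.4 over 107 to 138 in ADQ. Of the 12 AV rats, all lie above the YNG median and 7 above the highest YNG rat, while no ADQ rat lies above the highest YNG rat. The means ± SD were, from the highest to the lowest, 162 ± 47.8 in AV, 138 ± 38.1 in AA, 112 ± 16.0 in ADQ and 108 ± 20.4 in YNG, and no 2 neighbors in this order passed the threshold. Turned into reads, Ncf1 was off a whole number in most rats, by up to 0.498 (YNG rat V4). Cybb, Ncf4, Rac2 and Itgb2 stayed within 0.017 of whole reads. The cause of the fractions was not tested.

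Ncf1 was higher in AV than in YNG by 0.56 ± 0.14 (p = 0.000164, adjusted p = 0.0165 by limma with Benjamini-Hochberg adjustment over all genes). It was one of the 2 members to pass after adjustment in that comparison, where 2.35% of all genes did. Ncf1 was also higher in AA than in YNG, by 0.33 ± 0.14 (p = 0.0208, adjusted p = 0.121), a call that was lost without AA rat 4107 (0.26, p = 0.0605). ADQ did not differ from YNG beyond the spread, at 0.07 ± 0.14 (p = 0.624), with a 95% interval of -0.21 to 0.35.

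In ADQ, Ncf1 was below AV by 0.49 ± 0.13 (p = 0.000584, adjusted p = 0.185), with all 11 ADQ rats below the AV median. AA minus AV was -0.23 ± 0.13 (p = 0.0945) and AA minus ADQ was 0.26 ± 0.14 (p = 0.0576), so the 2 treatments were not shown to differ. The series of rat numbers gave different values for AA. In the lower series AA was below AV by 0.56 (p = 0.00466) and in the higher the difference was 0.08 (p = 0.682). ADQ was below AV in both series, by 0.58 (p = 0.00343) and 0.39 (p = 0.046), and AV above YNG in both, by 0.70 (p = 0.000419) and 0.43 (p = 0.0481).

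Ncf4 was as thinly covered as Cybb, with 2 to 44 reads per library. It ranged from 2.5 over a median of 14.1 to 28 in YNG and from 6.79 over 17.2 to 41.5 in AV. It ranged from 3.01 over 14.6 to 24.5 in AA and from 6.33 over 11.3 to 24.6 in ADQ. No comparison of Ncf4 passed the threshold, and the groups overlap over nearly their whole ranges.

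The largest difference of Ncf4 was -0.44 ± 0.29 in ADQ compared to AV (p = 0.134), with a 95% interval of -1.03 to 0.14.

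Rac2 is the Rac GTPase of blood and immune cells, which in its GTP-bound form completes the active oxidase and which lymphocytes make as well. It ranged from 19.6 over a median of 51.1 to 78.3 in YNG and from 31.6 over 67.7 to 223 in AV. It ranged from 35.7 over 48.9 to 77.3 in AA and from 28 over 49.2 to 60.5 in ADQ. The AV rats lie on both sides of the YNG median, since 5 of the 12 are above every YNG rat, 4 of these between 142 and 223, and 4 are below the YNG median.

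Rac2 was higher in AV than in YNG by 0.79 ± 0.26 (p = 0.00402, adjusted p = 0.0899), and the mean of AV was 103 ± 71.2 (SD) against 50.8 ± 16.9. A permutation test of the same difference over the rats, which uses no spread from the other groups, gave an unadjusted p of 0.0326. Rac2 was lower in AA than in AV by 0.69 ± 0.25 (p = 0.00904, adjusted p = 0.999) and lower in ADQ than in AV by 0.91 ± 0.25 (p = 0.000828, adjusted p = 0.197). The permutation test gave larger unadjusted p for these falls, 0.0377 in AA and 0.0076 in ADQ. In AA and ADQ Rac2 differed from YNG by 0.10 ± 0.27 (p = 0.717) and -0.12 ± 0.27 (p = 0.654). Within the series of rat numbers AA was below AV by 1.12 (p = 0.00373) and 0.29 (p = 0.381).

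Rac1, the ubiquitous Rac that can serve the same oxidase, had mean values of 5743 ± 489 (SD) in AV against 6178 ± 873 in YNG, and of 5598 ± 684 in AA against 5795 ± 417 in ADQ. None of its 6 comparisons passed, and AV minus YNG was -0.10 ± 0.07 (p = 0.175).

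Itgb2 encodes the common beta chain of the leukocyte integrins, which pairs with the alpha chains Itgal, Itgam and Itgax and is found on microglia and on lymphocytes. It ranged from 103 over a median of 128 to 151 in YNG and from 141 over 205 to 427 in AV. It ranged from 122 over 159.8 to 189 in AA and from 126 over 154 to 191 in ADQ. Of the 12 AV rats, 11 lie above every YNG rat, as do 6 of the 11 AA rats and 6 of the 11 ADQ rats, and the highest AV rat is number 4568.

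Itgb2 was the member with the smallest p in AV compared to YNG, higher by 0.80 ± 0.13 (p = 2.56e-07, adjusted p = 0.000307), with means of 235 ± 91.1 and 127 ± 15.1 (SD). It held in both series of rat numbers, at 0.89 (p = 5.06e-05) and 0.69 (p = 0.00283). Itgb2 was above YNG in AA too, by 0.31 ± 0.14 (p = 0.0269, adjusted p = 0.136), a call that was lost without YNG rat V5 (0.28, p = 0.0533). The permutation test of AA against YNG, which uses no spread from the other groups, gave an unadjusted p of 0.0035.

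In ADQ, Itgb2 exceeded YNG by 0.27 ± 0.14 (p = 0.0523), outside the threshold. That p rests on a spread shared with the AV rats. In a fit of ADQ and YNG alone the same 0.27 had p = 0.00451, and the permutation test gave an unadjusted p of 0.00146. Itgb2 was below AV in both treated groups, by 0.49 ± 0.13 in AA (p = 0.000416, adjusted p = 0.733) and by 0.53 ± 0.13 in ADQ (p = 0.00016, adjusted p = 0.134). The permutation test gave larger unadjusted p for these falls, 0.0054 in AA and 0.0013 in ADQ. The 2 treated groups differed by 0.04 ± 0.13 (p = 0.765), with a 95% interval of -0.23 to 0.31.

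Of the alpha chains, Itgam, which forms the complement receptor of microglia and neutrophils, was higher in AV than in YNG by 0.38 ± 0.13 (p = 0.00446, adjusted p = 0.0917) and lower in ADQ than in AV by 0.40 ± 0.12 (p = 0.00206, adjusted p = 0.238). Itgal, the alpha chain of lymphocytes above all, was higher in AV than in YNG by 0.84 ± 0.31 (p = 0.0101, adjusted p = 0.122). Its AV values ran from 18.5 over a median of 33.3 to 191, and 5 AV rats lie above every YNG rat. Itgax, an alpha chain of dendritic cells and of activated microglia, was below the filter and was not tested. It had 0 reads in 4 AV rats, 4 YNG rats, 7 AA rats and 3 ADQ rats, and reached 55 in AV against at most 3.88 elsewhere.

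**Figure D2:**
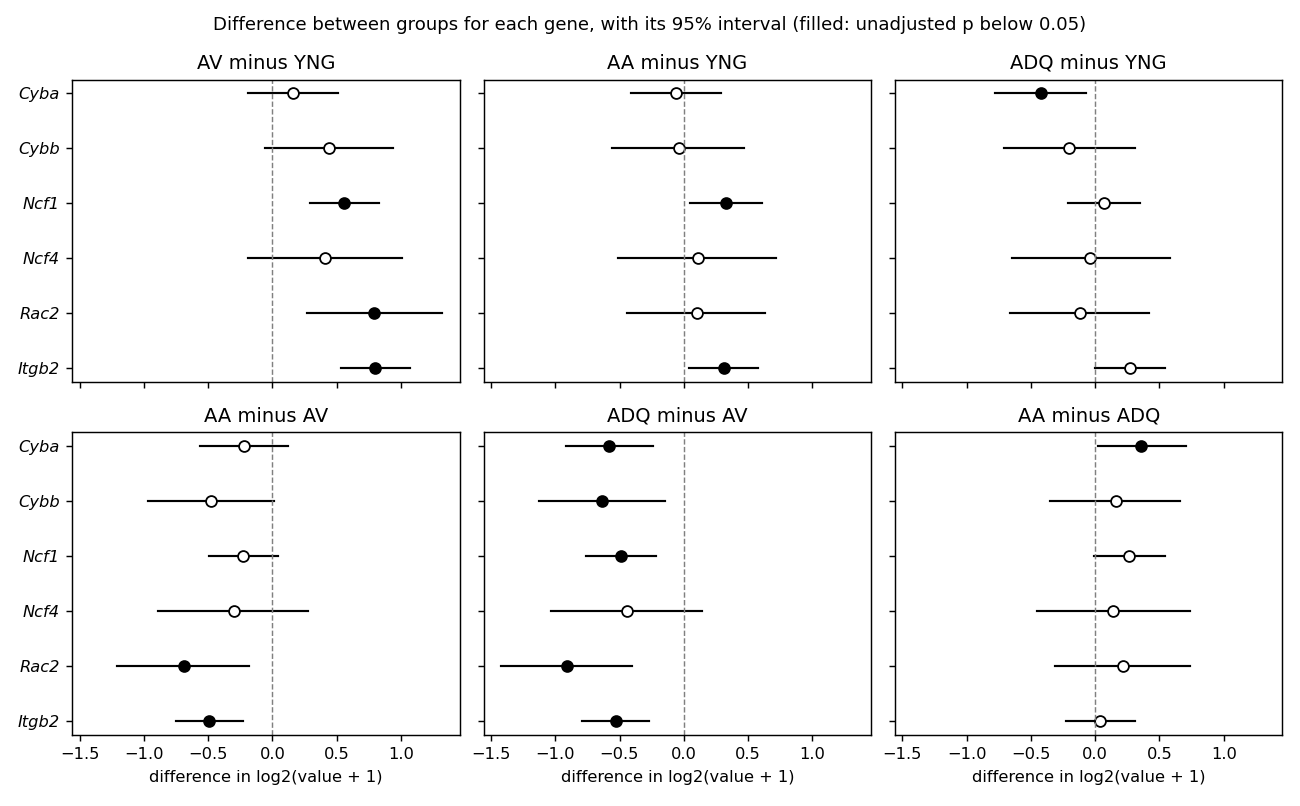
Difference of each gene in each of the 6 comparisons (horizontal axis, log2(value + 1)), with its 95% interval from limma. Filled points have an unadjusted p below 0.05. Of the members, 5 are filled in ADQ minus AV, 3 in AV minus YNG, 2 in AA minus YNG and in AA minus AV, and 1 in each of the other comparisons.

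The median difference of the 6 members was 0.50 in AV compared to YNG, -0.56 in ADQ compared to AV and -0.39 in AA compared to AV, while the median of all genes tested was within 0.01 of 0 in each. After Benjamini-Hochberg adjustment in limma 0 genes passed between any 2 older groups, although 1454 genes had an unadjusted p under 0.05 in ADQ compared to AV and 703 in AA compared to AV. Comparisons that share AV or YNG rats are not independent of each other. The response to ABT-263 and to D + Q can be compared directly only in AA minus ADQ, where Cyba alone passed.

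The AV rats with the highest Rac2 and Itgb2 were also those with the highest lymphocyte markers. The 7 T and NK cell markers in the table, of 12 listed, summed to between 121 and 938 in AV with a median of 327, whereas the highest sum was 299 in AA, 223 in YNG and 215 in ADQ. In 7 of the 12 AV rats the sum was above that of every rat of the other groups. Of these markers Cd8a, Nkg7, Gzma and Gzmb had 0 reads in 8 or 9 of the 10 YNG rats each, and in 3 to 7 of the 12 AV rats. Their AV means were 22.2, 32.4, 5.03 and 11.3 against at most 0.301 in YNG, and the perforin gene Prf1 had a mean of 98.9 in AV and 1.74 in YNG. Cd3e and Cd4 held most of the sum outside AV, with YNG means of 51 and 96.1 and AV means of 66.1 and 151, and on the log2 scale Cd3e did not pass in AV compared to YNG (-0.41, p = 0.644). The 4 AV rats with the highest sums (numbers 4009, 3989, 4568 and 3999, sums of 504 to 938) had the 4 highest Rac2 values and the 4 highest Itgb2 values of all 44 rats.

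In the same 4 rats Cyba, Cybb, Ncf1 and Ncf4 did not all stand high. Rat 3989 was the highest AV rat for each of these 4 genes. Rat 4009, with the highest lymphocyte markers and the highest Rac2, had Ncf1 at 141 and Ncf4 at 11.7, both below the AV medians. Rat 4568, with the highest Itgb2, had the lowest Cybb of the AV group, at 7.70, and Ncf1 at 118. Rat 3999 had the highest Itgam, at 548, and the highest Itgal, at 191.

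**Figure D3:**
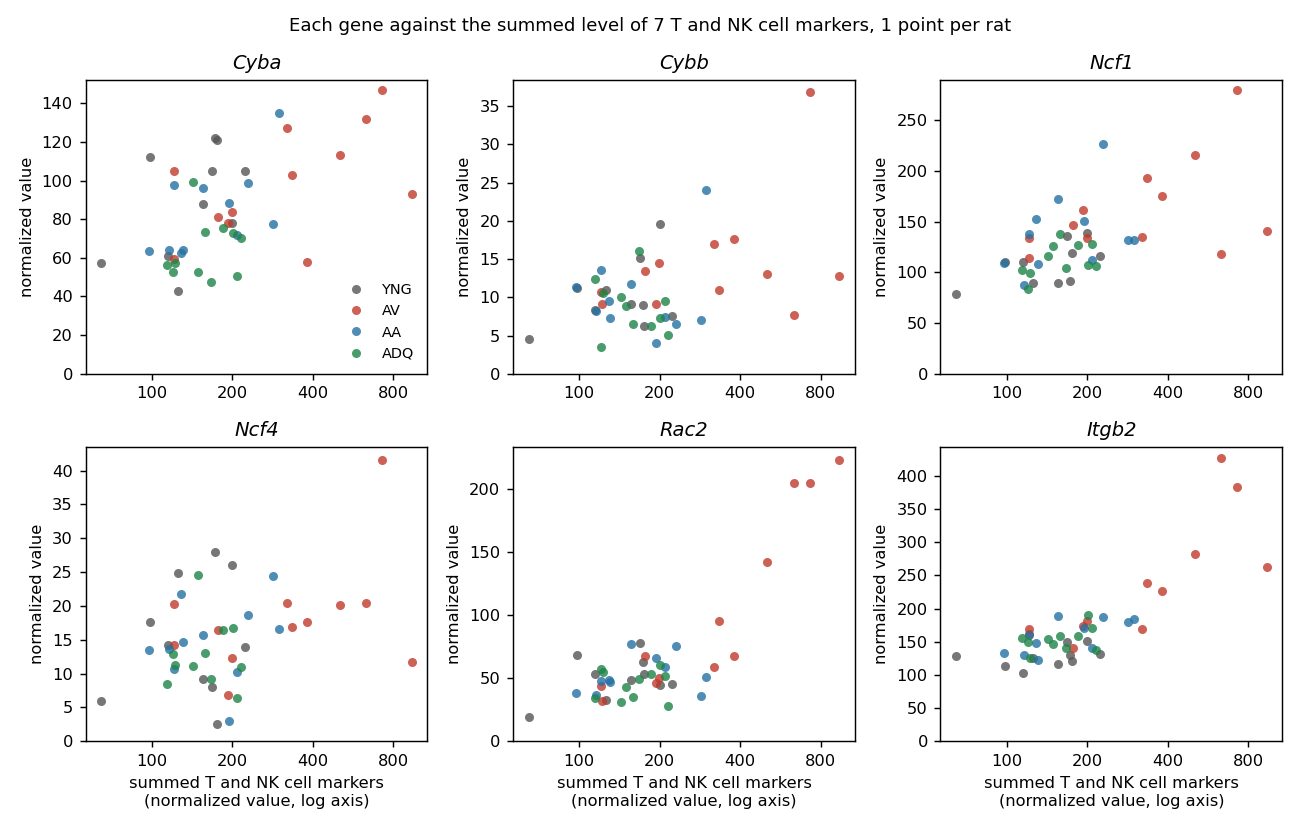
Normalized value of each gene (vertical axis, from 0) against the summed normalized value of 7 T and NK cell markers (horizontal axis, log scale), with 1 point per rat colored by group. Rac2 and Itgb2 rise with the sum among AV rats, in which the sum reaches 938, and the highest sum outside AV is 299, in AA.

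With the mean log2 level of the tested T and NK markers added to the fit as a term, Itgb2 remained higher in AV than in YNG, by 0.46 (p = 8.4e-05), and Ncf1 by 0.39 (p = 0.0109). Rac2 did not, at 0.11 (p = 0.595). Of the falls in ADQ, the same fit left Cyba at -0.40 (p = 0.0386) and Ncf1 at -0.32 (p = 0.0334) past the threshold, with Rac2 at -0.22 (p = 0.294), Itgb2 at -0.18 (p = 0.086) and Cybb at -0.54 (p = 0.0624). In AA compared to AV no member passed, with Rac2 at -0.07 (p = 0.723) and Itgb2 at -0.18 (p = 0.085).

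The fit was also run without the 7 AV rats whose marker sum was above every rat of the other groups. This leaves 5 AV rats with low sums by construction. By the mean log2 level used as the term, remaining rat 4569 (3.74) was above every rat of the other groups, at most 3.55. Removed rats 4572 (2.95) and 3890 (3.34) were within the range of those groups. In this fit Itgb2 was higher in AV than in YNG by 0.38 (p = 0.00145) and Ncf1 by 0.37 (p = 0.0237), whereas Rac2 was at -0.04 (p = 0.879). No member passed in ADQ or AA compared to AV. In ADQ the values were -0.34 for Cyba (p = 0.106), -0.42 for Cybb (p = 0.182), -0.30 for Ncf1 (p = 0.0588), -0.08 for Rac2 (p = 0.722) and -0.11 for Itgb2 (p = 0.311). Both settings were chosen after the values had been seen.

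Microglial markers moved with the members as well. The 15 markers summed to between 8606 and 19636 in AV with a median of 10547, and to between 6927 and 11233 in YNG with a median of 9581. The highest sum in AA was 12629 and in ADQ 9774. Against shares of 10.6% higher and 5.9% lower among all genes, 7 of the 15 markers were higher in AV than in YNG and 7 lower in ADQ than in AV. With their mean log2 level as a term, Itgb2 remained higher in AV than in YNG by 0.62 (p = 7.86e-06) and Ncf1 by 0.29 (p = 0.00506), while Rac2 was at 0.42 (p = 0.0846). Between ADQ and AV the same fit left Itgb2 at -0.34 (p = 0.00884) and Rac2 at -0.50 (p = 0.0398), and Cyba, Cybb and Ncf1 did not pass, at -0.27 (p = 0.0723), -0.38 (p = 0.142) and -0.20 (p = 0.0522).

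Other markers of blood and of infiltrating cells also reached their highest sums in AV. The 6 neutrophil markers in the table, of 10 listed, summed to at most 298 in AV and at most 115 in any other group. The median sum was 87.8 in AV and 69.4 in YNG. Csf3r held most of the mean level, with means of 82.2 in AV and 64.8 in YNG. The sum of 3 monocyte markers, which include Fn1, reached 13074 in AV against 1478 in YNG. Fn1 held most of it, with means of 3037 in AV and 627 in YNG. Vcan had means of 330.3 and 276, and Plac8 of 5.31 and 1.6, with 7.9 in AA. The 6 markers of border macrophages summed to at most 209 in AV and 159 in AA, with medians of 86.6 in AV and 93.2 in YNG, and none passed in AV compared to YNG. The 5 red blood cell markers in the table reached 91042 in AV and at most 26765 in any other group, but the median sum was 10824 in AV and 12467 in YNG. Of these 5 markers 1 passed as higher in AV compared to YNG and all 5 passed as lower in ADQ compared to AV. Glial markers moved as well. Of 9 tested markers of activated microglia, 4 passed as higher and 1 as lower when AV was compared to YNG, and 4 as lower and 1 as higher when ADQ was compared to AV. Of 6 oligodendrocyte markers, 5 passed as higher in the first comparison and 4 as lower in the second. The 4 endothelial markers in the table were all higher in AV than in YNG and all lower in ADQ than in AV. Of all genes, 10.6% passed as higher in the first of these comparisons and 5.9% as lower in the second. None of the 4 B cell markers was in the table. The part of any of these cells in the results was not tested beyond the fits given here.

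**Figure D4:**
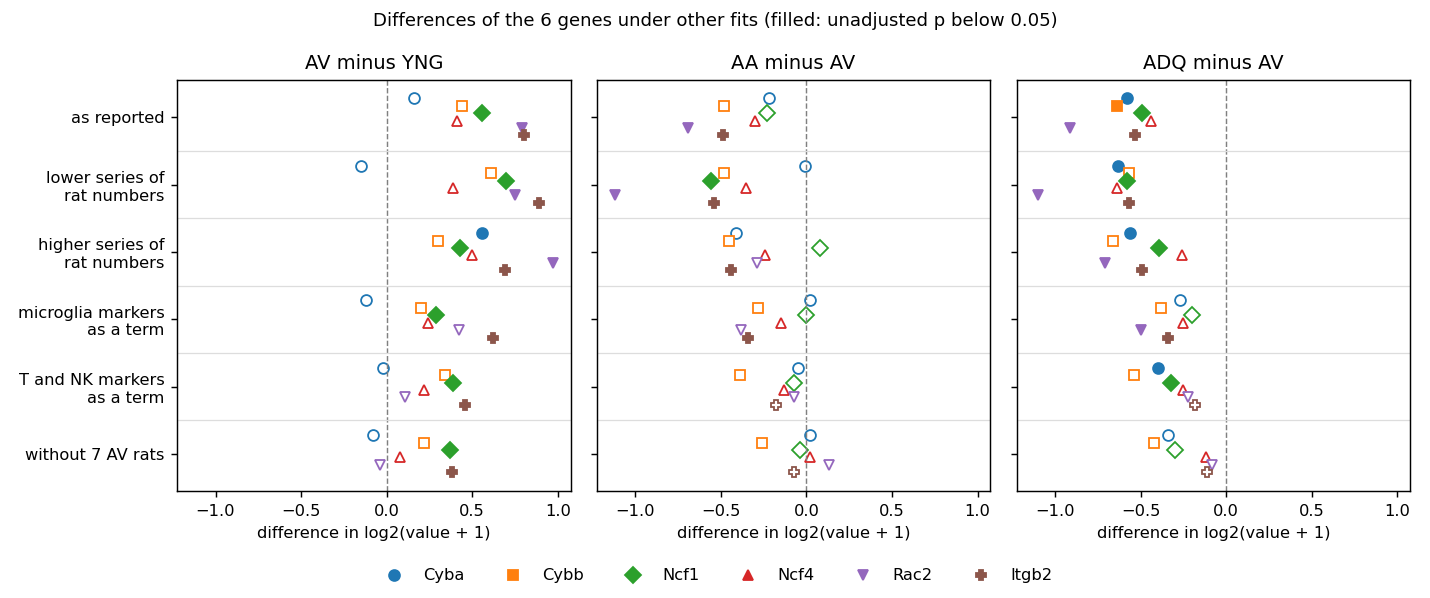
Difference of each gene in AV minus YNG, AA minus AV and ADQ minus AV (horizontal axis, log2(value + 1)) as reported, within each series of rat numbers, with microglial or T and NK markers as a term, and without 7 AV rats. Filled symbols have an unadjusted p below 0.05. Itgb2 and Ncf1 are filled in every row of AV minus YNG, and no gene is filled in the lowest row of the panels for AA and ADQ.

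From rat to rat, after each group's mean was subtracted, the 15 pairs of members had Pearson correlations from 0.07 to 0.67 with a median of 0.33 (n = 44). The highest was between Rac2 and Itgb2, with r = 0.67 (permutation p = 0.00011, adjusted over the pairs 0.00165) and rho = 0.62 (permutation p = 7e-05, adjusted 0.00105), and r = 0.65 without the 2 rats farthest from the median. It was 0.87 among the 12 AV rats and 0.25 over the 32 other rats. Among these r was 0.53 in AA, 0.23 in ADQ and -0.01 in YNG, and a difference between groups was not tested. Cyba and Cybb, whose proteins form 1 complex, had r = 0.17 (permutation p = 0.287, adjusted 0.351) and rho = 0.09 (permutation p = 0.554, adjusted 0.554), with r = 0.25 without the 2 farthest rats.

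Ncf1 and Itgb2 had r = 0.47 (permutation p = 0.00533, adjusted 0.02) and rho = 0.56 (permutation p = 0.00027, adjusted 0.00202), and in contrast to the pair above r was 0.59 outside AV and 0.43 within it. Without the 2 farthest rats it was 0.33. Of the 15 pairs, 7 had an adjusted permutation p below 0.05.

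Against the mean of the microglial markers, Ncf1 had r = 0.78 and rho = 0.70 (permutation p = 1e-05 and 3e-05, adjusted p = 0.00018 and 0.00027 over 18 relations, 1e-05 being the smallest p that 100000 permutations can give), and r = 0.68 without the 2 farthest rats. Its r was between 0.73 and 0.85 in each of the 4 groups. Cyba had r = 0.65 and rho = 0.66 (permutation p = 2e-05 and 3e-05, adjusted p = 0.00018 and 0.00027), and 0.64 without the 2 farthest rats, but 0.23 within ADQ. Against the mean of the T and NK markers, Rac2 had r = 0.74 and Itgb2 r = 0.75 (permutation p = 4e-05 and 5e-05, adjusted p = 0.000225 for both), with rho = 0.57 and 0.62 (permutation p = 0.00062 and 0.00015, adjusted p = 0.00204 and 0.0009) and r = 0.69 for both without the 2 farthest rats. Within AV these were 0.93 and 0.89, and over the 32 other rats 0.23 and 0.27. Against the microglial markers, Rac2 and Itgb2 had r = 0.55 and 0.53 (permutation p = 0.00077 and 0.00207, adjusted p = 0.00277 and 0.00621), rho = 0.52 and 0.54 (permutation p = 0.00068 and 0.00044, adjusted p = 0.00204 and 0.00198), r = 0.44 and 0.37 without the 2 farthest rats, and r = 0.57 for both over the 32 rats outside AV. Cybb and Ncf4 had r = 0.80 and 0.75 with the microglial markers within AV, and 0.17 and -0.01 outside it. Over all rats they had r = 0.40 and 0.23 (permutation p = 0.0126 and 0.156, adjusted p = 0.0226 and 0.178). Their rho was 0.23 and 0.26 (permutation p = 0.137 and 0.103, adjusted p = 0.176 and 0.143). Without the 2 farthest rats, 1 of them AV rat 3989, r was 0.29 and 0.05.

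The tested genes whose pattern over the 44 rats was most like that of each member, by Pearson's r after the group means were subtracted, differed between members. For Cyba they were Rhoc (r = 0.79), Laptm5 (0.78) and Tcn2 (0.76), and for Ncf1 Pld4 (0.76), Selplg (0.73) and Ccnd1 (0.73). For Rac2 they were Tbx21 (0.77), Angpt2 (0.76) and Tbc1d10c (0.74), and for Itgb2 Gbp2 (0.78), Ptpn6 (0.78) and Arhgap45 (0.77). For Ncf4 the highest was Phf21a (0.55). Tbx21 is a transcription factor of cytotoxic and helper lymphocytes, Laptm5 a lysosomal protein of immune cells and Selplg one of the microglial markers listed above. No gene was among the 3 nearest of more than 1 member.

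Genes that act with the oxidase were followed in lists chosen with earlier results of these data known. Of 26 tested genes for other oxidase isoforms and for regulators of the oxidase, 7 were higher and 2 lower in AV compared to YNG, with a list median of 0.03. The 3 smallest p belonged to Pik3cg (0.50 ± 0.12, p = 0.000202), Pik3r5 (0.68 ± 0.18, p = 0.000513) and Pik3cd (0.43 ± 0.13, p = 0.00235), all subunits of the phosphoinositide kinases of leukocytes. In ADQ compared to AV, 4 of the 26 were lower and 2 higher. Of all genes, 21.3% passed in the first comparison, 10.6% as higher, and 9.32% passed in the second, 5.9% as lower. Pik3r5 (-0.57 ± 0.18, p = 0.00235) and Arhgdib, a GDP dissociation inhibitor of blood cells that can hold Rac2 in the cytosol (-0.78 ± 0.21, p = 0.000631), were among the lower, and the epithelial oxidase Duox2 was higher (0.99 ± 0.31, p = 0.00289).

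Of 23 tested genes for partners of Itgb2 and its adhesion signaling, 11 were higher and 0 lower in AV compared to YNG, with a median of 0.35. In ADQ compared to AV 14 were lower and 0 higher, with a median of -0.33, and in AA compared to AV 6 were lower and 0 higher, with a median of -0.18. Of all genes, 10.6% passed as higher in AV compared to YNG. In ADQ and in AA compared to AV, 5.9% and 3.1% of all genes passed as lower. Icam2, a ligand of the integrin on endothelium and leukocytes, was higher in AV by 1.10 ± 0.19 (p = 8.04e-07) and lower in ADQ than in AV by 0.66 ± 0.19 (p = 0.000998). Fermt3, the kindlin that activates the integrin tail in blood cells, was higher in AV by 0.81 ± 0.19 (p = 7.07e-05), and the phospholipase Plcg2 by 0.56 ± 0.15 (p = 0.000577). Myo1f, a motor protein of leukocytes, was lower in ADQ by 0.58 ± 0.16 (p = 0.000633).

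Of 19 tested genes listed as receptors linked to triggering of the oxidase, the inhibitory Fcgr2b among them, 7 were higher and 0 lower in AV compared to YNG. In ADQ compared to AV 10 were lower and 0 higher. Of all genes, 10.6% passed as higher in the first comparison and 5.9% as lower in the second. The inhibitory Fc receptor Fcgr2b was higher in AV by 1.13 ± 0.16 (p = 3.79e-09, adjusted p = 1.18e-05), the ATP-gated channel P2rx7 by 0.84 ± 0.18 (p = 3.41e-05) and the adaptor Tyrobp by 0.62 ± 0.17 (p = 0.000529). The smallest p in ADQ compared to AV belonged to the TNF receptor Tnfrsf1a (-0.40 ± 0.10, p = 0.000166), the receptor of platelet-activating factor Ptafr (-0.43 ± 0.12, p = 0.000569) and Tyrobp (-0.50 ± 0.16, p = 0.00325). None of these passed after adjustment in ADQ compared to AV.

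Of 14 tested genes listed under superoxide and peroxide handling, 1 was higher and 1 lower in AV compared to YNG. The list median was -0.02, and 21.3% of all genes passed in that comparison. The 2 that passed were Hmox1, which degrades heme (0.38 ± 0.14, p = 0.00835), and the cytosolic superoxide dismutase Sod1 (-0.40 ± 0.14, p = 0.00783). Lower in ADQ than in AV were 2, Hmox1 (-0.35 ± 0.14, p = 0.0134) and the extracellular superoxide dismutase Sod3 (-0.39 ± 0.14, p = 0.00724), where 5.9% of all genes passed as lower.

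Of 4 tested genes for other sources of superoxide and nitric oxide, against 10.6% of all genes, 3 were higher in AV than in YNG. They were the xanthine dehydrogenase gene Xdh (0.88 ± 0.21, p = 0.000153), Aox1 (0.34 ± 0.12, p = 0.00804) and the endothelial nitric oxide synthase Nos3 (0.50 ± 0.21, p = 0.0204), and Nos3 was lower in ADQ than in AV by 0.68 ± 0.20 (p = 0.00169).

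Of 12 myeloid transcription factors, 5 were higher and 0 lower in AV compared to YNG and 1 was lower in ADQ compared to AV, against 10.6% of all genes higher in the first and 5.9% lower in the second. Spi1, which encodes PU.1, differed by 0.16 ± 0.19 between AV and YNG (p = 0.408) and by -0.27 ± 0.18 between ADQ and AV (p = 0.14). Irf8, its partner in macrophages, differed by 0.22 ± 0.14 (p = 0.132) and by -0.19 ± 0.14 (p = 0.183). The factor with the smallest p was the microglial Sall1, higher in AV by 0.61 ± 0.12 (p = 7.96e-06), and Fli1 was higher as well (0.45 ± 0.19, p = 0.022).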

How the data were processed

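Polyadenylated RNA from the DG of 44 rats was sequenced on the Ion platform. According to the submitters' processing notes, the authors used the rn6 build, STAR 2.5.3a, Partek and DESeq2, and they deposited a table of normalized signal, made by dividing each row's reads by the size factor of the library. The annotation is not given in the sources used here. Low values of genes with 1 row were whole multiples of a step per library, within 0.05 reads, in 78.1% to 83.1% of cases. As the values were not all whole reads, no count test was run, and reads per library were taken from the step. The deposited sample labels give the age only (6 or 12 months), so the authors' attribute table, joined by rat name, supplied the treatment. For all 44 rats the listed age matched the label.

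Rows were summed per gene identifier (24694 rows, 18347 identifiers). For genes with a mean of at least 5, limma 3.58.1 (R 4.3.3) was run on log2(value + 1) with a trended prior and without its robust mode, in 1 model of all 4 groups with two-sided tests. The unadjusted threshold of 0.05 follows the study, and adjusted p-values are Benjamini-Hochberg over the 15598 genes. Correlations used values after each group's mean was subtracted and 100000 permutations within groups, two-sided, and the permutation tests of single differences used 100000 resamples. The script was tested on simulated data with genes of known change. Tables and figures used Python 3.11.15, pandas 2.3.3, scipy 1.17.1 and matplotlib 3.10.9.

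The members, the gene lists, the markers and the alternatives were chosen with earlier results of these data known. Named genes are the 6 members, their partners and the genes nearest to each member. They also include the 3 smallest p of each list in AV against YNG and in ADQ against AV. The markers Cd3e, Cd4, Cd8a, Nkg7, Gzma, Gzmb, Prf1 and Csf3r with AABR07000398.1 were named after their values were seen. The alternatives were other scalings, filters, pseudocounts, rows and spread estimates, array weights, 4 added terms, fits within series or of 2 groups alone, and leaving out each rat. Some genes named by this rule are not reported here.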

Additional observations from a re-analysis of the deposited data

Results flagged for a closer look

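For 3 of 36 tests of a difference between the 2 series of rat numbers, each of a member in 1 comparison, the unadjusted p was below 0.05 (limma interaction of group and series). The difference of Cyba between AV and YNG was larger by 0.71 on the log2 scale in the higher series (p = 0.0412, adjusted p = 0.208), a comparison in which 21.8% of all genes had such a p. The difference of Cyba between ADQ and YNG was larger by 0.78 in the higher series (p = 0.0291, adjusted p = 0.509), against 8.89% of all genes. The difference of Ncf1 between AA and AV was larger by 0.64 in the higher series (p = 0.018, adjusted p = 0.937), against 4.71% of all genes. Of the rats in the lower series 6 were YNG and 6 AV, with 5 in each treated group, and in the higher 4 were YNG, with 6 in each older group. No rat stood apart by Dixon's criterion in YNG, the 1 group small enough for it.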

How the results depend on the processing

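In AV compared to YNG, Itgb2 and Ncf1 passed under every alternative run, and Itgb2 passed as lower in both treated groups compared to AV under all but the fits with T and NK markers as a term or without 7 AV rats. Cybb and Ncf4 had at most 39 and 44 reads per library. Rescaling to library totals moved the median of all genes by 0.10, 0.148 and 0.145 in AV, AA and ADQ compared to YNG and the share of higher calls to 81.1%, 85.3% and 82.6%, from 49.6%, 47.2% and 48%. Under it AA minus YNG was 0.09 for Cyba and 0.09 for Cybb, and ADQ minus YNG was 0.09 for Ncf4 and 0.02 for Rac2. With this scaling 2 members passed in AA compared to ADQ, as did 595 of the 15598 genes. The cause of the shifts in this section was not tested.

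With upper quartile scaling 2 members and 4477 of all genes passed in ADQ compared to YNG. Fits of the 2 groups alone gave 2 members and 5005 genes there, and 2 members and 877 genes in AA compared to ADQ. Array weights gave 7694, 7068 and 8101 genes in AV, AA and ADQ compared to YNG. They gave 1584 genes in AA compared to ADQ and 921 in AA compared to AV. Of the members 2 passed in ADQ compared to YNG and 1 in AA compared to AV. Cyba was then at -0.08 in AV and Ncf4 at -0.15 in AA minus YNG and at -0.06 in AA minus ADQ. With estimated reads as a term 2 members and 754 genes passed in AA compared to ADQ, and with series as a term Cybb was at 0.01 in AA minus YNG.

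Within the lower series 5212 genes passed in AV compared to YNG and 885 in ADQ compared to AV. In AA compared to YNG 0 members and 4465 genes passed. Cyba was at -0.15 in AV, Cybb at 0.13 and Rac2 at -0.37 in AA and Cybb at 0.04 in ADQ minus YNG, with Rac2 at -0.02 in AA minus ADQ. Within the higher series 984, 1928 and 1077 genes passed in AV, AA and ADQ compared to YNG, and 656 in AA compared to AV. Of the members 1 passed in AA and 0 in ADQ compared to YNG and 1 in AA compared to AV. There Cyba was at 0.15 in AA and 0.00 in ADQ, Ncf4 at 0.24 and Rac2 at 0.26 in ADQ minus YNG, and Ncf1 at 0.08 in AA minus AV.

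With microglial markers as a term 461 genes passed in AA and 570 in ADQ compared to AV. In ADQ compared to YNG 4684 passed, and in AA compared to ADQ 794. Of the members 2 passed in ADQ compared to YNG, 1 in AA and 2 in ADQ compared to AV and 2 in AA compared to ADQ. Cyba was at -0.12 in AV minus YNG and 0.02 in AA minus AV, Ncf1 at 0.00 in AA minus AV and Itgb2 at 0.00 in AA minus ADQ. With T and NK markers as a term 1228 genes passed in AV and 4528 in ADQ compared to YNG, and 513 in AA and 503 in ADQ compared to AV. Of the members 2 passed in ADQ compared to YNG, 0 in AA and 2 in ADQ compared to AV, with Cyba at -0.02 in AV minus YNG. Without the 7 AV rats high in the sum of these markers 1689 genes passed in AV compared to YNG. Compared to AV, 205 passed in AA and 442 in ADQ. In ADQ compared to YNG 4757 passed, and in AA compared to ADQ 912. Of the members 2 passed in ADQ compared to YNG, 0 in AA and 0 in ADQ compared to AV and 2 in AA compared to ADQ. Cyba was then at -0.08 and Rac2 at -0.04 in AV minus YNG, and Cyba at 0.02, Ncf4 at 0.02 and Rac2 at 0.13 in AA minus AV.

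Leaving out each rat in turn, members called ranged from 3 to 4 in AV, 1 to 2 in AA and 1 to 2 in ADQ compared to YNG, 2 to 3 in AA and 5 to 5 in ADQ compared to AV, and 0 to 2 in AA compared to ADQ. Genes called ranged from 458 (without AV rat 3989) to 1055 (without AA rat 3985) in AA compared to AV and from 471 (without AA rat 4107) to 1074 (without ADQ rat 4004) in AA compared to ADQ. AA minus YNG ranged from -0.17 to 0.07 for Cybb, from -0.11 to 0.29 for Ncf4 and from -0.04 to 0.17 for Rac2, and ADQ minus YNG from -0.25 to 0.09 for Ncf4. Cybb passed in AV compared to YNG without YNG rat V12 (0.55, p = 0.0345).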
